A study of Homo sapiens with 8 samples.

Results

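ID1, ID2 and ID3 (inhibitor of DNA binding proteins) were examined together with the SMAD genes SMAD1, SMAD2, SMAD3, SMAD4, SMAD5 and SMAD7 and the ligand gene TGFB1 in PTBP1-depleted leukemia cells. These 10 genes were chosen by name from the BMP and TGF-β signalling pathway, with earlier results of these data known. The paper had already reported ID1 as lower after PTBP1 knockdown. The table held 62639 annotated genes, of which 16474 had at least 1 count. The 10 genes have 104 annotated transcripts in the table, and 30 of these transcripts had a count. Every one of the 10 genes had a count, and 6 of them, ID1, ID2, ID3, SMAD1, SMAD2 and SMAD7, passed the filter on low counts and were tested.

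BMP and TGF-β ligands bind serine/threonine kinase receptors at the cell surface. BMP-type receptors phosphorylate SMAD1 and SMAD5, whereas TGF-β and activin receptors phosphorylate SMAD2 and SMAD3. Activated SMADs pair with SMAD4 and enter the nucleus, and SMAD7 is an inhibitory member that is itself induced by the pathway and blocks the receptors. The ID genes are classical BMP targets. ID proteins are helix-loop-helix proteins without a DNA-binding basic region, so they hold E proteins such as TCF3 and TCF12 away from their E-box sites. In some blood cell types they are known to delay differentiation.

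The libraries came from MOLM-13, a human acute myeloid leukemia (AML) cell line, carrying a lentiviral construct with a doxycycline-inducible shRNA. In 4 shPTBP1 libraries the shRNA targeted PTBP1, an RNA-binding splicing repressor, and in 4 shControl libraries it was a scrambled sequence. Cells of both groups expressed mCherry constitutively and the ΔLNGFR surface marker together with the shRNA, and both received doxycycline for 9 days, so the groups differ in the shRNA and not in the drug. There was 1 shRNA per group and no group without doxycycline. Total RNA was read as full-length PCR cDNA by nanopore sequencing. In such bulk RNA, fewer cells that express a gene and less RNA per cell cannot be told apart. The libraries are labelled as biological replicates, and the labels do not say whether they came from separate cultures or transductions.

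Each library held between 1528449 and 1613342 counts, of which the 10 genes took 240 to 308 in the shPTBP1 libraries and 387 to 472 in the shControl libraries. Levels are given as counts per 1000000 normalized library counts (CPM). PTBP1 itself was at 6.33, 9.91, 8.56 and 14.7 CPM in the shPTBP1 libraries and at 39.9, 57.3, 42.7 and 50 CPM in the shControl libraries. The difference was -2.26 ± 0.22 on the log2 scale (SE), with an adjusted p of 7.18e-05 in edgeR's quasi-likelihood test. Every library thus carried the PTBP1 level its label calls for. All 10 myeloid markers had a count, although SPI1 had only 1 over all libraries. The summed lymphoid markers stayed at or under 1.33 CPM, and HBB and KLF1 of the erythroid markers were at 0. The erythroid marker that passed the filter, EPOR, was at 8.59 ± 0.462 CPM in shPTBP1 and 11.6 ± 4.76 CPM in shControl libraries, and of the stromal and epithelial markers COL1A2 was at 10.1 ± 1.3 and 9.1 ± 1.79 CPM (SD, n = 4). Of the 8 myeloid markers tested, 7 had positive and 1 had a negative log2 fold change, 4 had an unadjusted p under 0.05 and 1 was called (edgeR). The one called was CD68, a macrophage and monocyte lysosomal protein, which rose from 332 ± 35.8 to 425 ± 20.2 CPM (SD, n = 4; edgeR adjusted p = 0.0194). Over all 7597 tested genes 2.36% were called higher. The others at that unadjusted level were LYZ (0.33 on the log2 scale, adjusted p = 0.103), CD33 (0.26, adjusted p = 0.187) and, in the other direction, ITGAM (-0.85, adjusted p = 0.245), all by edgeR. ITGAM, at an unadjusted edgeR p of 0.0441, ranked only 1366 by p among all tested genes, so this unadjusted level was common. FLT3 had 18 counts in shPTBP1 and 35 in shControl libraries and did not pass the filter. The part of these markers in the results below was not tested.

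The sequences shown are the DNA just before the start sites of the ID genes and the exon ends by which the detected isoforms differ. The promoter stretches are from the RefSeq table of GRCh38.p14, in the 5′ to 3′ direction of the gene, with the core SMAD-binding motif GTCT (searched on both strands, so also as AGAC) in capitals. The ID1 stretch, chr20:31605039-31605282 on the plus strand, runs up to the annotated start of the gene:
ID1: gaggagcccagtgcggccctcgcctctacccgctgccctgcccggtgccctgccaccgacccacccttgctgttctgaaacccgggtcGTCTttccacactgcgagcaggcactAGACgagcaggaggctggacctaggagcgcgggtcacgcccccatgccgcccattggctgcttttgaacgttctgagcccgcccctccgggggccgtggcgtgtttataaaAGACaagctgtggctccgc
The ID3 stretch, chr1:23559502-23559751 on the minus strand, ends at the base before the gene:
ID3: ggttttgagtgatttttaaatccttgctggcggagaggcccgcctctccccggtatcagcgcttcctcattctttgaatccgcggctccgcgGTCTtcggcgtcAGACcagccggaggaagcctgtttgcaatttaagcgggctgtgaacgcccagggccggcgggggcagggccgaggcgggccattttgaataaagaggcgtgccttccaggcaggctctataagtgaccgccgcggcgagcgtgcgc
For ID2 the 30 bases around its matches are shown, chr2:8681944-8681973 on the plus strand, since the rest of its window overlaps untranslated sequence of a longer ID2 transcript:
ID2: cgcccgctcGTCTtgatAGACgtgccacct

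In the 250 bases before the RefSeq start site, ID1 held 3 matches to GTCT, ID2 held 2 and ID3 held 2. This short motif is common, present in 77.5% of 35116 promoters, with a median of 1 match. The BMP-type motif GGCGCC was in 16.4% of promoters and in none of the 3 ID windows. The RUNX core TGTGGT, searched on both strands, was in 11% of promoters and likewise in none of the ID windows. From chromatin profiling of MOLM-13 cells the paper reports RUNX1 and PTBP1 together at ID1, so a missing core in this window does not mean missing RUNX1. An E-box, CANNTG, was found in 61.8% of promoters, and of the ID genes only ID2 held one, with 1 match. The matches describe the letters only. DNA farther than 250 bases from the start was not searched, so SMAD sites outside these windows are not covered. An antisense RNA gene overlaps part of the window of ID2, and another noncoding gene overlaps part of that of ID1.

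ID1 and ID3 fell after PTBP1 knockdown, and ID2, the third ID gene detected, was not called changed. Of the 6 genes tested, 2 were called lower and 0 higher at an adjusted p under 0.05 (edgeR), where 3.19% of all 7597 tested genes were called lower and 2.36% higher. At an unadjusted p under 0.05 there were also 2 calls among the 6, a level that was common over all tested genes. The myeloid marker ITGAM, at 0.0441 (edgeR), ranked 1366 by p among the 7597. The median over the 6 was -0.82 on the log2 scale, beside a median of -0.00 over all tested genes. For both ID1 and ID3 every shPTBP1 library lay below every shControl library, as it did for 6.37% of all tested genes. No member lay the other way round, where 6.32% of all tested genes did. Since the fall of ID1 was known before the genes were chosen, these comparisons with all tested genes are a description.

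ID1, at chr20:31605283-31606515 on the plus strand, had 7, 15, 21 and 21 counts in the shPTBP1 libraries and 34, 88, 39 and 84 counts in the shControl libraries. On the CPM scale these were 4.43, 9.91, 13.8 and 13.4 against 20.9, 56.0, 26.0 and 53.9. The control libraries split into a lower pair (replicates 1 and 3) and a higher pair (replicates 2 and 4), yet even the lowest of them was above the highest knockdown library. The mean in knockdown cells was 26.5% of the control mean (edgeR adjusted p = 0.0101), and the 95% confidence interval of the fold was 0.154 to 0.46. ID1 thus had the greatest spread of the 3 ID genes in control cells, and its call rests on 64 counts in the shPTBP1 libraries and 245 in the shControl libraries.

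ID3, at chr1:23557926-23559501 on the minus strand, had the smallest adjusted p of the 6 genes. It was at 56.9, 70.7, 66.5 and 78.1 CPM in the shPTBP1 libraries and at 115, 111, 121 and 115 CPM in the shControl libraries. The groups were far apart and the control libraries close together, with means of 68.1 ± 8.83 and 116 ± 4.35 CPM (SD, n = 4). The log2 fold change was -0.76 ± 0.10 (SE), with an adjusted p of 0.000597 (edgeR), and ID3 ranked 33 by p among all tested genes, where ID1 ranked 114. The 95% interval of the fold was 0.508 to 0.682, an interval that is narrower than that of ID1 and lies above it.

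ID2, at chr2:8678845-8684461 on the plus strand, was at 49.3, 68.7, 61.9 and 57.6 CPM in the shPTBP1 libraries and at 70.1, 58.6, 64.7 and 63.5 CPM in the shControl libraries. The groups overlapped, although shPTBP1 replicates 1 and 4 lay below all of the control libraries. It changed by -0.11 ± 0.12 on the log2 scale (SE), with an adjusted p of 0.655 in edgeR. Its 95% interval, from -0.36 to 0.14, allows a fold between 0.777 and 1.10 and does not reach the interval of either ID1 (-2.70 to -1.12) or ID3 (-0.98 to -0.55).

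**Figure D1:**
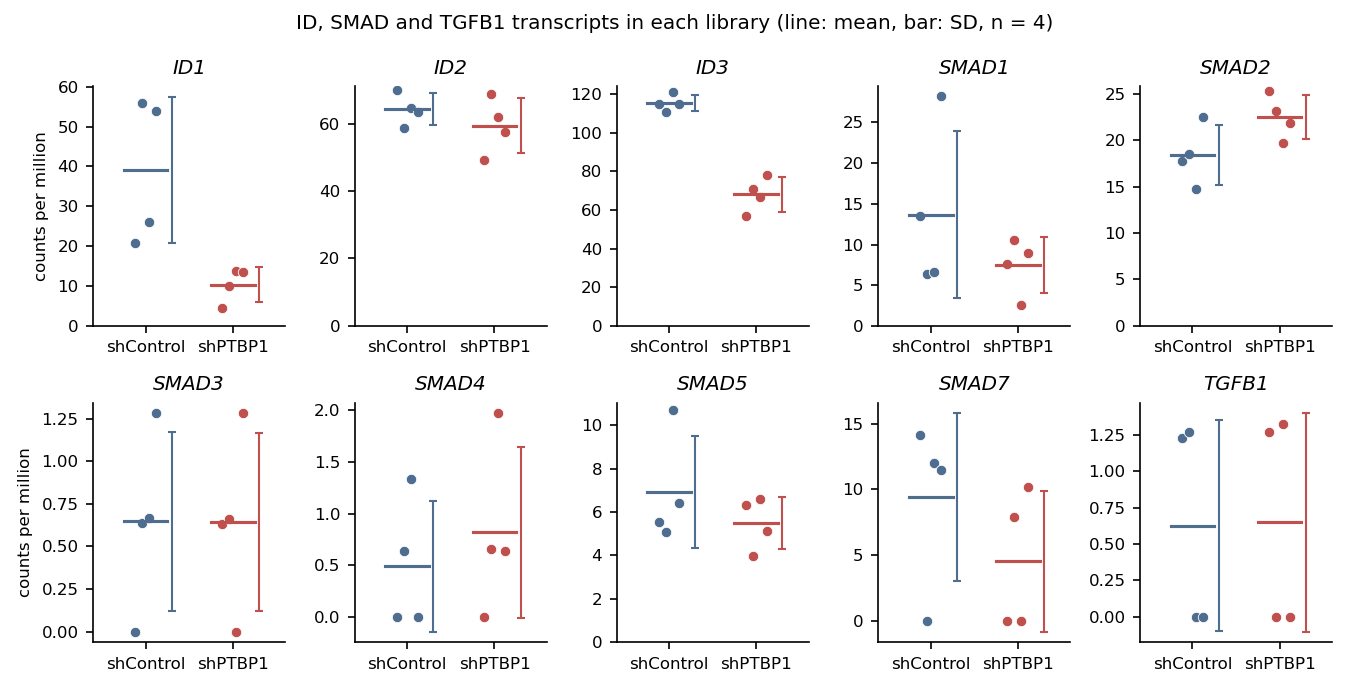
CPM of each of the 10 genes (y axis, own scale per panel) in the 4 shControl and 4 shPTBP1 libraries. Points are libraries, horizontal lines are group means and vertical bars are 1 SD. The groups are apart for ID1 and ID3, and overlap for the other 8 genes.

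The 3 ID genes together gave 111, 149, 142 and 149 CPM in the shPTBP1 libraries and 206, 225, 212 and 233 CPM in the shControl libraries. The summed ID level was therefore lower in each knockdown library than in any control library (138 ± 18.4 against 219 ± 12.3 CPM, SD, n = 4). ID1 made up 17.6 ± 7.47% of this sum in control cells and 7.34 ± 2.59% in knockdown cells. The share of ID2 was 29.4 ± 3.6% in control and 43.2 ± 3.21% in knockdown cells, and that of ID3 was 52.9 ± 4.18% and 49.5 ± 2.83%. These shares are computed from the levels above and are not separate observations.

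The levels of the 3 ID genes were set side by side on both scales, since how far the counts of these long reads scale with transcript length was not tested. On the CPM scale the control libraries lay at 20.9 to 56.0 for ID1, 58.6 to 70.1 for ID2 and 111 to 121 for ID3, in this order without overlap. Per kb of the most counted isoform (983 bases for ID1, 1299 for ID2 and 950 for ID3), ID3 was the highest in control cells at 122 ± 4.58 CPM per kb, followed by ID2 at 49.4 ± 3.63 and ID1 at 39.9 ± 18.7 CPM per kb (SD, n = 4). On this scale the means of ID2 and ID1 differed by less than the SD of ID1. In knockdown cells the order per kb was the same, with ID3 at 71.6 ± 9.3, ID2 at 45.7 ± 6.24 and ID1 at 10.6 ± 4.43 CPM per kb.

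The ratios between the ID genes within a library were compared after these values had been seen and are given as a description. The log2 ratio of ID1 to ID2 was between -3.48 and -2.10 in the shPTBP1 libraries and between -1.75 and -0.06 in the shControl libraries, without overlap. The ratio of ID2 to ID3 was between -0.44 and -0.04 in knockdown and between -0.92 and -0.71 in control libraries, again without overlap. For ID1 to ID3 the ranges overlapped, from -3.68 to -2.27 in knockdown and from -2.46 to -0.98 in control libraries, so ID1 and ID3 were not separated in this way.

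GC content moved with the comparison. In the quintile of tested genes with the highest GC content (56.4 to 73.5%), the median log2 fold change was -0.107 and 5.59% of genes were called lower, against 0.057 and 1.38% in the quintile with the lowest (30.7 to 40.2%). The main isoforms of ID1 (57.9% GC), ID3 (56.7%) and SMAD7 (57%) lie in that quintile, and those of ID2 (42.5%), SMAD1 (43.1%) and SMAD2 (41.1%) do not. With the trend on GC content and length removed, an alternative added after the values were seen, ID1 stayed at a log2 fold change of -1.87 (edgeR adjusted p = 0.00859), ID3 at -0.75 (adjusted p = 0.00032) and ID2 at -0.17 (adjusted p = 0.457).

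The 3 tested genes whose profile over the 8 libraries was closest to that of ID1 were SLX9, PPP1R27 and NAPRT, a nicotinate phosphoribosyltransferase of NAD synthesis. Closeness was the root mean square difference of log2 CPM, each gene centred on its own mean, and came to 0.311, 0.328 and 0.351, beside a median of 1.08 over all tested genes. SLX9 was at 1.90, 3.30, 6.58 and 5.76 CPM in the shPTBP1 libraries and at 7.99, 15.9, 13.3 and 16.7 CPM in the shControl libraries. PPP1R27 was at 6.96, 13.2, 10.5 and 21.1 CPM against 26.4, 50.3, 24.0 and 54.5 CPM, and NAPRT at 9.49, 13.9, 19.1 and 21.8 CPM against 25.8, 57.3, 28.7 and 43.6 CPM. They were chosen for this likeness, so the pattern they share with ID1, control replicates 2 and 4 above 1 and 3, is a description. The 3 genes are rich in GC, at 65.9%, 63.3% and 67.8%. In control replicates 2 and 4 the genes of the highest GC quintile lay on average 0.099 and 0.102 above their own mean on the log2 scale. This was more than in control replicates 1 (0.014) and 3 (0.031). The part of GC content in the likeness was not tested.

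**Figure D2:**
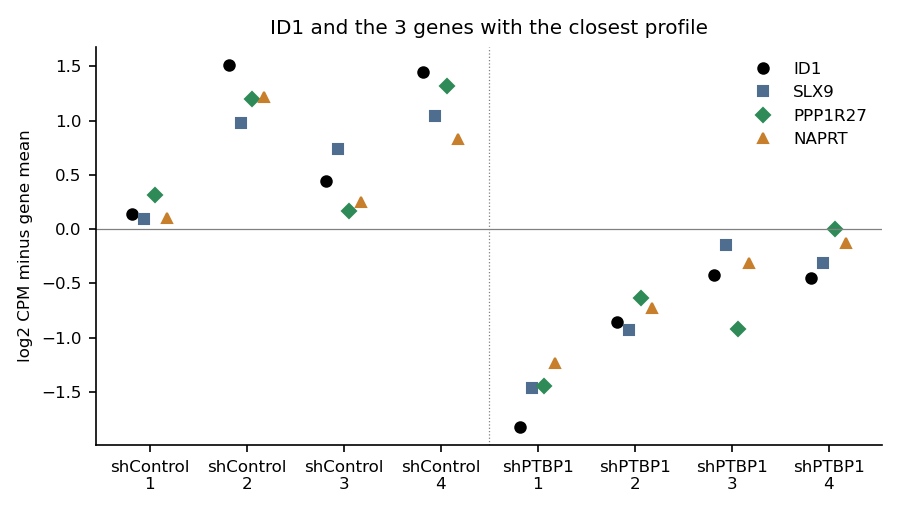
Log2 CPM minus the gene's own mean (y axis) of ID1, SLX9, PPP1R27 and NAPRT in each library (x axis); the dotted line parts shControl from shPTBP1. ID1 runs from -1.82 in shPTBP1 replicate 1 to 1.51 in shControl replicate 2, and the other genes follow it closely.

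None of the SMAD genes was called changed. Of the receptor-activated SMADs of the BMP branch, SMAD1, at chr4:145481194-145559176, was at 7.59, 10.6, 2.63 and 8.96 CPM in the shPTBP1 libraries and at 13.5, 6.37, 6.67 and 28.2 CPM in the shControl libraries. The groups overlapped, and shControl replicate 4 stood above all others. The estimate on the log2 scale was -0.88 ± 0.48 (SE), not called by edgeR (adjusted p = 0.354), and without shControl replicate 4 it was -0.25 (adjusted p = 0.831). SMAD5, the other SMAD of this branch, at chr5:136132845-136188747, was at 6.33, 3.96, 6.58 and 5.12 CPM against 5.53, 5.09, 10.7 and 6.42 CPM and did not pass the filter. The groups overlapped, and its ratio of counts per library total was 0.78 with a 95% interval of 0.482 to 1.25 that covers counting error only.

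SMAD2, a receptor-activated SMAD of the TGF-β branch at chr18:47808957-47931146, had the highest fold change of the 6 genes tested. It was at 25.3, 23.1, 19.7 and 21.8 CPM in the shPTBP1 libraries and at 17.8, 18.5, 14.7 and 22.5 CPM in the shControl libraries. The groups overlapped through shControl replicate 4. On the log2 scale the difference was 0.29 ± 0.18 (SE), with an edgeR adjusted p of 0.419 and a 95% interval of -0.10 to 0.68.

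SMAD7, the inhibitory SMAD at chr18:48919853-48950965, had 0, 12, 0 and 16 counts in the shPTBP1 libraries and 23, 0, 18 and 18 counts in the shControl libraries. It was thus either at 0 or at 12 counts and above, in both groups, and all its counts were on SMAD7-201. edgeR put it at -1.04 ± 0.85 on the log2 scale (SE; adjusted p = 0.561), with an interval of -2.88 to 0.79 that excludes neither a deep fall nor a rise. With 1 library left out it ranged from -1.82 (without shPTBP1 replicate 4) to -0.62 (without shPTBP1 replicate 1). A pattern of 0 or at least 10 counts in every library was seen for 136 genes in all, and among the 7539 genes with a mean of at least 10 counts, 149 had a library at 0. The cause of such zeros was not tested.

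SMAD3, SMAD4 and TGFB1 were at the limit of detection. SMAD3, the partner of SMAD2 in the TGF-β branch, had 4 counts in each group, and the ligand gene TGFB1 also had 4 in each. SMAD4, the common partner of all receptor-activated SMADs, had 5 counts in the shPTBP1 and 3 in the shControl libraries. No library held more than 3 counts of any of them. By counting error alone, a count of 0 in 1 library allows up to 3 counts, or 1.86 to 1.96 CPM. SMAD7 was at 0 in shPTBP1 replicates 1 and 3 and shControl replicate 2, beside 12 to 23 counts in the other libraries. A 0 in these data therefore need not keep within this limit. No change in SMAD3, SMAD4 or TGFB1 was detectable with so few counts. The low values do not show that these genes are off, since SPI1, a defining myeloid transcription factor gene, also had only 1 count over all libraries.

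Among the isoforms, the ID genes were read mainly as 1 transcript each. For ID1 this was ID1-202, in which an intron of 239 bases (chr20:31605814-31606052) is removed, while ID1-201 keeps it. The coding sequence of ID1-202 has 155 codons and that of ID1-201 has 149, because the kept intron brings an early stop. The coding bases after the junction, from GENCODE v44 transcripts on GRCh38, are shown with the stop codon in capitals, at chr20:31606053-31606094 for ID1-202 and chr20:31605814-31605837 for ID1-201:
ID1-202: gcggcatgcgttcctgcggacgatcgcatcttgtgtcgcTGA
ID1-201: gtgagatccagatccgaccacTAG
The intron-keeping form took 0, 13.3, 9.52 and 0% of ID1 counts in the shPTBP1 libraries and 2.94, 10.2, 5.13 and 8.33% in the shControl libraries. These are 4 counts in knockdown and 19 in control cells in all. The ranges overlapped, so a change in intron retention beside the lower ID1 level was not detectable with so few counts.

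ID2-203, which starts 3211 bases downstream of ID2-201, took 89.6 ± 5.78% of ID2 counts in shPTBP1 and 90.1 ± 5.41% in shControl libraries (SD, n = 4). ID3-201 took between 96.3 and 100% of ID3 counts in every library. Neither share separated the groups (exact two-sided permutation test, p = 1 for ID3-201). The smallest p that 4 against 4 libraries can give in this test is 0.0286, and of the 6 main-isoform shares compared none reached it.

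For SMAD2 the isoforms differ in an exon of 90 bases, chr18:47870475-47870564 on the minus strand, which lies in the coding sequence of SMAD2-203. The exon encodes an insertion in the DNA-binding MH1 domain, and it is known that full-length SMAD2 does not bind DNA directly whereas the form without the exon can. Its sequence, from GENCODE v44, in the direction of transcription, is:
SMAD2 exon: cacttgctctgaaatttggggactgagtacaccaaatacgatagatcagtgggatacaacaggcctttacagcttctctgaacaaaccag
SMAD2-205 and SMAD2-202 lack it. Isoforms without the exon took 50, 40, 33.3 and 26.5% of SMAD2 counts in the shPTBP1 libraries and 34.5, 41.4, 40.9 and 62.9% in the shControl libraries. The groups overlapped, with means of 37.5 ± 10 and 44.9 ± 12.4% (SD, n = 4; exact two-sided permutation test, p = 0.4). Pooled over libraries, 53 of 139 counts were on isoforms without the exon in shPTBP1 (38.1%, Wilson 95% interval 30.5 to 46.4) and 53 of 115 in shControl (46.1%, 37.3 to 55.2). The intervals overlap and cover counting error only. Counts were sorted by the annotated isoform they were assigned to, and single reads were not checked for the exon.

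SMAD2-205 alone, which also starts and ends inside the longer isoforms, went from 44.9 ± 12.4% in control to 33.1 ± 5.54% in knockdown cells (SD, n = 4; exact two-sided permutation test, p = 0.0571). The change of -11.8 percentage points was -5.85 without shControl replicate 4 (exact two-sided permutation test, p = 0.114). All 7 counts of SMAD2-202 were in shPTBP1 replicate 1. In the test across all isoforms (diffSpliceDGE) 4 isoforms, of ID2 and SMAD2, could be tested and 0 were called, where 1.12% of 5464 isoforms were called overall. For these 4 the unadjusted p was also never under 0.05, the smallest being 0.3 for SMAD2-203.

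SMAD1 was split between SMAD1-201 and SMAD1-215, which begins 958 bases downstream with a first exon of its own of 366 bases (chr4:145482811-145483176). SMAD1-201 took 33.3, 68.8, 50 and 71.4% of SMAD1 counts in the shPTBP1 libraries and 68.2, 80, 70 and 84.1% in the shControl libraries. The mean share was 19.7 percentage points lower in knockdown cells, but the ranges overlapped (exact two-sided permutation test, p = 0.143) and shPTBP1 replicate 3 rests on 4 counts. Without shPTBP1 replicate 1 the change was -12.2 points. SMAD5-211, which holds an exon of 75 bases (chr5:136147832-136147906) that SMAD5-212 lacks, took 89.4 ± 8.26% in knockdown and 76.0 ± 25.7% in control cells (SD, n = 4; exact two-sided permutation test, p = 0.486). The change of 13.4 percentage points was 0.579 without shControl replicate 2, which holds 8 SMAD5 counts.

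**Figure D3:**
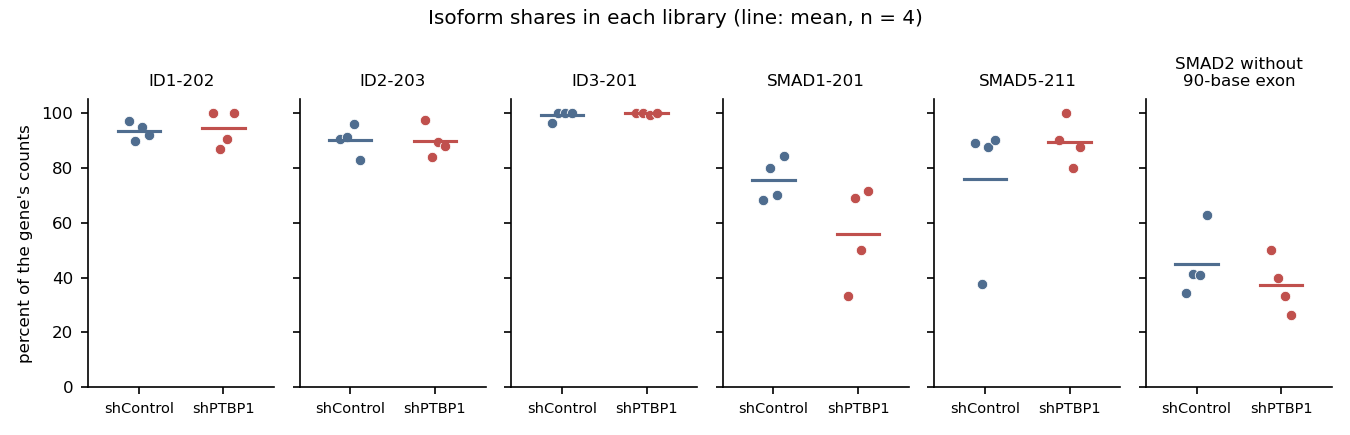
Percent of a gene's counts (y axis) on its main isoform, or for SMAD2 on isoforms without the 90-base exon, in the 4 shControl and 4 shPTBP1 libraries. Points are libraries and lines are group means. The groups overlap in all 6 panels.

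The other genes of the pathway were taken from 5 lists of ligands, receptors, regulators, ID partners and target genes, 110 genes in all, of which 87 had a count and 33 were tested. Of these, 1 was called lower and 0 higher at an adjusted p under 0.05, and 7 had an unadjusted p under 0.05 (edgeR). The share called is near that over all tested genes, 3.19% lower and 2.36% higher, so the calls do not set the lists apart. An unadjusted p under 0.05 was common as well: a gene at 0.0441 (ITGAM, edgeR) ranked 1366 among all 7597 tested genes. On the log2 scale the median over the 33 genes was 0.01, with 16 negative and 17 positive values, beside -0.00 over all tested genes.

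The gene called lower was ZEB1, a zinc-finger E-box repressor counted with the targets. It was at 8.86, 9.91, 9.22 and 12.2 CPM in the shPTBP1 libraries and at 17.8, 21.0, 19.3 and 20.5 CPM in the shControl libraries, without overlap. It differed by -0.96 ± 0.19 on the log2 scale (SE), with an adjusted p of 0.0127 in edgeR, but by DESeq2 the adjusted p was 0.0612. Its paralog ZEB2, on the same list, had a log2 fold change of 0.15 (edgeR adjusted p = 0.54). The other 10 tested targets were not called. MYC, which TGF-β represses in epithelial cells, was at 430 ± 25.7 CPM in shPTBP1 and 427 ± 23.4 CPM in shControl libraries (SD, n = 4), and the integrin gene ITGAE at 261 ± 34.6 and 210 ± 11.8 CPM (edgeR adjusted p = 0.0725).

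Of the 24 ligand and ligand-processing genes, 14 had a count and 2 were tested, and neither was called. The BMP ligand gene BMP8B was at 116 ± 15.4 CPM in shPTBP1 and 120 ± 21.0 CPM in shControl libraries, and GDF15, a stress-induced member of the TGF-β superfamily, at 24.0 ± 4.13 and 22.8 ± 4.65 CPM (SD, n = 4). BMP4 had 36 counts in shPTBP1 and 33 in shControl libraries and did not pass the filter.

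Of the 15 receptor genes, 13 had a count and 2 were tested, again with 0 called in either direction. These were the activin receptors ACVR1B, of type I (42.9 ± 2.84 CPM in shPTBP1 and 38.0 ± 9.69 in shControl, SD, n = 4), and ACVR2B, of type II (29.5 ± 4.09 and 35.9 ± 8.7 CPM). The BMP type II receptor gene BMPR2 had 29 and 44 counts. The TGF-β receptor genes TGFBR1 and TGFBR2 were near 0, with 2 and 4 counts and with 1 and 1 count in shPTBP1 and shControl libraries.

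Of the 30 regulators, 13 were tested and 0 called, with 2 at an unadjusted p under 0.05 (edgeR), a level common over all tested genes. STRAP, a receptor-associated protein that holds SMAD7 at the receptor, was at 719 ± 23.8 CPM in shPTBP1 and 638 ± 18.5 CPM in shControl libraries (SD, n = 4). The groups did not overlap, but the log2 fold change was 0.17 ± 0.05 (SE) with an edgeR adjusted p of 0.088, and by DESeq2 its adjusted p was 0.0366. FKBP1A, which binds type I receptors and keeps them inactive, was at 190 ± 11.7 and 181 ± 6.41 CPM (SD, n = 4). SMAD6, the second inhibitory SMAD, had 5 counts in the shPTBP1 libraries and 0 in the shControl libraries and was not tested.

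Of the 16 genes listed as partners of ID proteins or of related helix-loop-helix factors, 14 had a count, 5 were tested and 0 were called. The E-protein genes TCF12 and TCF3 had log2 fold changes of 0.19 (95% interval -0.14 to 0.52; edgeR adjusted p = 0.56) and -0.03 (-0.69 to 0.63; adjusted p = 0.975). COPS5, a COP9 signalosome subunit, was at 284 ± 27.4 CPM in shPTBP1 and 275 ± 15.1 CPM in shControl libraries (SD, n = 4). ETS2 had the highest point estimate, 0.77 on the log2 scale, with an edgeR adjusted p of 0.201.

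**Figure D4:**
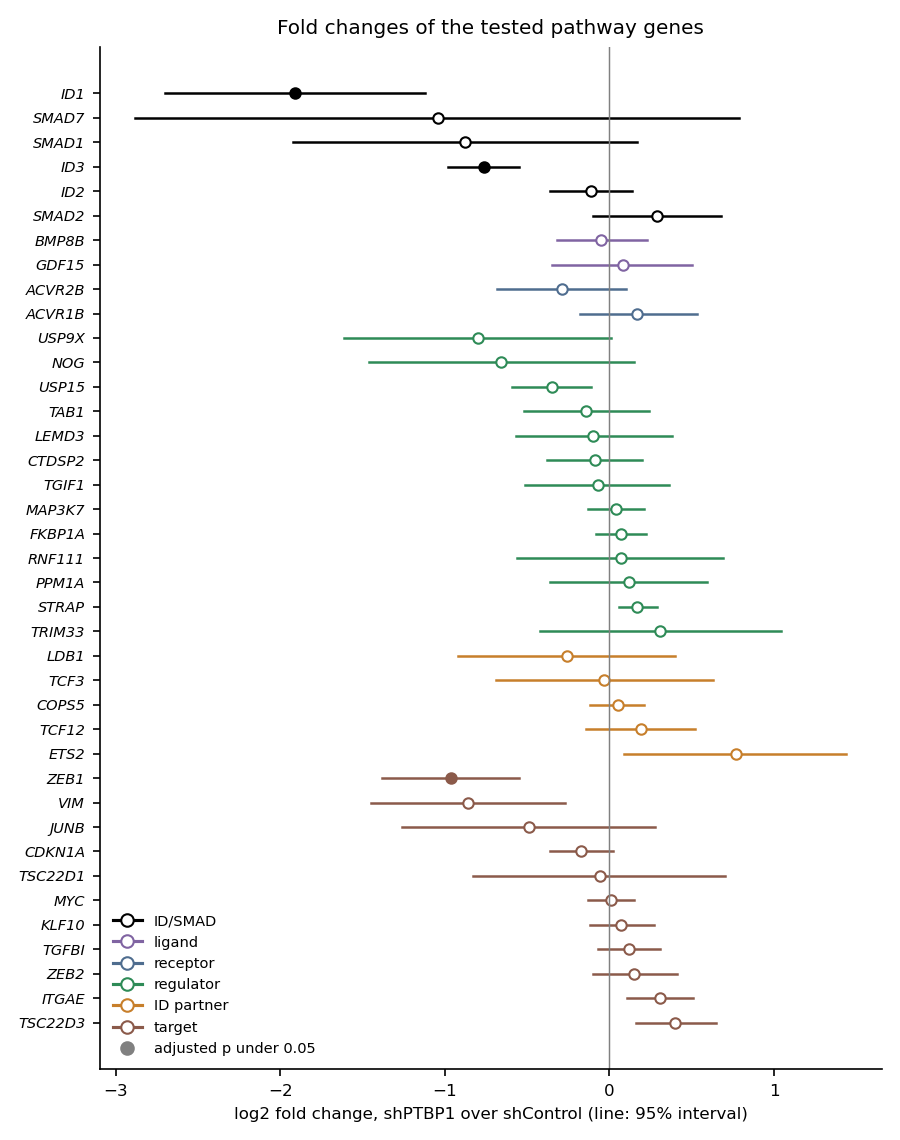
Log2 fold change of shPTBP1 over shControl (x axis) with its 95% interval for the 6 tested ID and SMAD genes and the 33 tested genes of the 5 lists (y axis). Filled points have an edgeR adjusted p under 0.05: ID1 and ID3, and ZEB1 among the targets.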

How the data were processed

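Long-read cDNA libraries of 8 MOLM-13 samples were analysed, 4 shPTBP1 and 4 shControl, grouped by the labels. Per the authors, reads were mapped to hg38 with minimap2 and filtered on mapping quality, and StringTie gave transcript counts; versions and the annotation are not given in the sources used here. The deposited counts per transcript are whole numbers. A second deposited table, named for another unit, held CPM, each value being the count over the library total (100% whole reads at a tolerance of 0.01; greatest difference 5e-07), so the counts were used throughout.

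Transcripts were matched to GENCODE v44 (252562 of 254070) and summed per gene. The 1508 unmatched transcripts took 0.0876 to 0.115% of counts and were left out. Genes were tested with edgeR's quasi-likelihood test (filterByExpr with a minimum count of 10, TMM, Benjamini-Hochberg over 7597 genes, threshold 0.05), isoforms with diffSpliceDGE (5464 transcripts of 2163 genes), and single shares with the exact two-sided permutation test. CPM values in the text use the totals of the tested genes scaled by TMM. The limit for a count of 0 uses library totals without TMM and covers counting error only. On simulated data 99.5% of 200 genes changed by 1.5 on the log2 scale were recovered among 7597, with 4 false calls, and 75% of 100 genes with swapped isoforms. The simulation gave every gene and isoform the same spread between replicates, a coefficient of variation of 10.3% beside counting error. These rates therefore do not carry over to genes with a greater spread, such as ID1, SMAD1 and SMAD7.

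The 10 genes, the lists and the tests were chosen with earlier results of these data known. Named genes are the 10 genes, PTBP1, called genes of the lists, the 2 highest tested genes of each list by CPM and the 3 genes closest to ID1 in profile; BMP4, BMPR2, TGFBR1, TGFBR2, SMAD6, TCF3, ZEB2, ETS2, USP15, TSC22D3 and the cell type markers SPI1, HBB, KLF1, CD33, LYZ, ITGAM, FLT3, EPOR and COL1A2 were added after their values were seen. DESeq2, limma-voom, limma-trend (pseudocount 1), other size factors, other filters, a replicate block and each library left out were alternatives. Same-numbered libraries did not deviate together (correlations -0.0328 to 0.00889 across genes).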

Additional observations from a re-analysis of the deposited data

Results flagged for a closer look

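Among 26 groups of 4 libraries examined for a single library far from the rest, 3 had one, where chance gives about 1 in 20. That rate does not hold for the share of ID3-201, since its other libraries were tied at 100% and any single differing library is then flagged. The share of ID3-201 was 99.0% in shPTBP1 replicate 3 and 100% in the other 3 libraries of that group, and it was 96.3% in shControl replicate 1 and again 100% in the others. These rest on 1 and 7 counts of ID3-202. The share of SMAD5-211 was 37.5% in shControl replicate 2, a library with 8 SMAD5 counts, against 87.5 to 90% in the other control libraries.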

How the results depend on the processing

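ID1 and ID3 were called lower, and ID2, SMAD1 and SMAD2 were not called, in every alternative that tested them; SMAD7 was likewise never called, and none of the 6 genes changed direction. The exception is the filter on a mean of at least 50 counts, which leaves ID1 and the SMAD genes out, so that 1 of the genes tested was called lower. DESeq2 gave no adjusted p for SMAD1 and SMAD7. Over all alternatives the log2 fold change of ID1 was between -2.12 and -1.65 (adjusted p up to 0.0402) and that of ID3 between -0.84 and -0.68 (up to 0.00521). Of the pathway lists, 0 genes were called lower by DESeq2 (the adjusted p of ZEB1 was 0.0612) and 0 with the filter at 50 counts, and 2 with the GC and length trend removed (ZEB1 and USP15). Called higher were 1 by DESeq2 (STRAP), 2 without a filter (TSC22D3 and ITGAE), 1 with the GC and length trend removed (TSC22D3) and 0 to 1 with 1 library left out (ITGAE without shPTBP1 replicate 1, TSC22D3 without shControl replicate 2). Leaving out 1 library turned the direction of 3 main-isoform shares that differed little: the change was -0.962 to 3.48 percentage points for ID1, -3.16 to 1.44 for ID2 and -0.248 to 1 for ID3. With a replicate block, 2 of the 10 genes were called lower, as without it, and 186 of all genes were lower and 137 higher, against 242 and 179; the labels give the numbers no shared origin and the block changed no call of the 10 genes, ZEB1 or PTBP1 (CD68 is not covered). Over all genes DESeq2 called 150 lower and 144 higher, and without shPTBP1 replicate 3 there were 107 and 77. Most SMAD genes and isoforms rest on fewer than 50 counts per library, which limits these comparisons. The cause of the low counts was not tested.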
